A study of Mus musculus with 28 samples.

Results

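Cytosolic ribosomal protein genes encode the proteins that, with ribosomal RNA, build the ribosome of the cytoplasm. They were taken as all genes whose symbol on the array has the form Rpl or Rps followed by a number, p0 to p2 or a, which leaves out the S6 kinases and the pseudogenes. Of 19938 genes measured, 61 had such a symbol: 35 of the large subunit, 23 of the small subunit and the 3 proteins of the P stalk. Among them were 7 paralogues whose symbol carries a further l or l1 (Rpl3l, Rpl7l1, Rpl10l, Rpl32l, Rpl39l, Rps27l and Rps4l). A further 24 ribosomal protein genes of the reference annotation, among them Rpl3, Rpl11 and Rps27a, were not among the features with a single gene symbol and were not analysed here. For 17 of these the feature carried several symbols.

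The small subunit of the ribosome reads the mRNA, and the large subunit joins the amino acids. The P stalk, made of Rplp0, Rplp1 and Rplp2, binds the elongation factors. Cells make the ribosomal proteins in matched amounts, and their mRNAs share a pyrimidine-rich start through which the kinase mTOR controls their translation. Such translational control changes the protein made per mRNA and is not measured by mRNA levels. Ribosomal protein genes also have many processed pseudogenes, copies of the mRNA inserted elsewhere in the genome, which can share probes with the parent gene.

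The study profiled the striatum of drug-naive mice, with left and right punches pooled, on 28 single-channel arrays of 28 mice in 2 batches. Congenic mice carried the 84 to 96 Mb region of chromosome 11 from strain A/J on a C57BL/6J (B6) background. Batch 1 held 6 B6 wildtype littermates and 6 heterozygous congenic mice, littermates of each other and 41 to 68 days old. Batch 2 held 8 B6 wildtype controls of 61 to 63 days and 8 homozygous congenic mice of 52 to 57 days, which were not littermates. Each group held as many females as males, 3 and 3 in batch 1 and 4 and 4 in batch 2. In batch 2 age, litter and genotype therefore changed together and cannot be told apart. A congenic segment holds many genes, and any of them or their flanks may differ between carriers and B6.

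Of the 61 genes 0 lay inside the congenic segment by gene order. On chromosome 11, Rpl26 and Rpl23a lay before the segment, and Rpl23, Rpl19, Rpl27 and Rpl38 lay after it. Rpl23 was the nearest, 42 coding genes past Calcoco2, the last segment gene. The X chromosome carried 3 of the 61 (Rpl10, Rpl36a and Rps4x).

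RefSeq start-site sequences (GRCm38.p6) were at hand for 49 of the 61 genes. The sequences below run from 60 bases before to 20 bases after the annotated start. Among the genes with such a sequence, Rps28, Rps12 and Rps7 followed the rest of the group most closely over all 28 mice. Over the same mice Rpl14, Rpl4 and Rpl3l followed it least. Also shown are the most variable gene (Rps27l) and Rps6. Capitals mark the motif CCGGAAG, bound by ETS factors, on either strand, and runs of at least 7 pyrimidines within 30 bases before to 20 bases after the start.
Rps28, chr17:33824543-33824622, minus strand: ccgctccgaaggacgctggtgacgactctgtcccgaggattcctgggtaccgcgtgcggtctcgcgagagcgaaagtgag
Rps12, chr10:23787190-23787269, minus strand: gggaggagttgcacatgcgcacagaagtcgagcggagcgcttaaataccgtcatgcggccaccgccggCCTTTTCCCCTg
Rps7, chr12:28635934-28636013, minus strand: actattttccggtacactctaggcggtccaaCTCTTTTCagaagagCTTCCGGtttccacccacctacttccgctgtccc
Rpl14, chr9:120571457-120571536, plus strand: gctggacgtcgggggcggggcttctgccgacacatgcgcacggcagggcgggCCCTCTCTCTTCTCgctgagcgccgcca
Rpl4, chr9:64173327-64173406, plus strand: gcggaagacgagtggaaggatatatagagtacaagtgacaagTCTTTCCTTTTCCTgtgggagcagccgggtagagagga
Rpl3l, chr17:24727766-24727845, plus strand: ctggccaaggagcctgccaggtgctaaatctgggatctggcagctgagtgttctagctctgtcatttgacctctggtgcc
Rps27l, chr9:66946026-66946105, plus strand: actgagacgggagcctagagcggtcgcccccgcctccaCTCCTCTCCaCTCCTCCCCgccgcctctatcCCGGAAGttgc
Rps6, chr4:86857348-86857427, minus strand: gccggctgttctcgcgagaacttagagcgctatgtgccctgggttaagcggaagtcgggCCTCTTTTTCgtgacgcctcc

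A pyrimidine run of that length was present near the annotated start of 26 of the 49 genes (53.1%), against 29.95% of all 27025 genes with a start-site sequence. In Rps6 and Rpl14 the run covered the annotated start, and in Rps12 it lay just after it. The next motifs were counted from 60 bases before to 20 bases after the start. CCGGAAG on either strand occurred there in 10 of the 49 (20.4%), against 4.98% of all genes. AAGATGGC, the core of the YY1 motif, on either strand occurred in 1 of the 49 (2.04%) against 0.662% of all. The TATA box TATAAA, read in the direction of transcription only, occurred in 1 of the 49 (2.04%) against 3.50%. The motifs do not overlap in the sequences shown. Rps28 and Rpl3l had none of them in these windows, although Rps28 stood first and Rpl3l near the bottom in how closely they followed the group.

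The values are log2 expression values of transcript clusters, the gene-level features of the array. A value depends on the cluster's own probes, so levels are compared between mice within a gene and not between genes. The 61 genes lay between 5.35 and 13.24 on this scale, each on its own probes. Rpl3l, known from striated muscle, read 6.08 ± 0.11 (SD, n = 8) in B6 controls. Rpl39l, known from testis, read 5.39 ± 0.089 in the same mice. Rpl10l, a testis retrogene of Rpl10, read 6.54 ± 0.26. Rps6, the S6 kinase substrate, read 13.26 ± 0.040 in B6 controls, 13.22 ± 0.084 in homozygous (n = 8), 13.25 ± 0.079 in littermates (n = 6) and 13.22 ± 0.055 in heterozygous mice (n = 6).

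The ribosomal protein genes varied little between mice of a group. Their median within-group SD was 0.0879 on the log2 scale, against 0.103 over all genes, and 43 of 61 lay below the median of all genes. Their median level was 10.76 against 7.83 over all genes, and their spread was not compared with that of genes of like level. The lowest SD was 0.0422 (Rpl27), followed by Rpl6, Rpl27a, Rpl13 and Rpl34. The highest were those of Rps27l (0.428), Rps19 (0.191), Rpl10l, Rpl14 (0.176) and Rpsa. Rps19, whose human counterpart is mutated in Diamond-Blackfan anaemia, ranged from 9.54 to 10.43 among the 6 heterozygous mice, 9.78 to 10.16 among the littermates, 9.77 to 10.38 among the homozygous mice and 9.94 to 10.15 among the 8 B6 controls. The SD of Rps27l fell to 0.226 without 1 mouse, B6 control 1.

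The mean over all 61 genes gives 1 value per mouse. In batch 1 it ranged from 10.30 to 10.40 in littermates, around a mean of 10.35 ± 0.037 (SD, n = 6). In heterozygous mice it ranged from 10.30 to 10.35, with a mean of 10.34 ± 0.020. In batch 2 the B6 controls spanned 10.34 to 10.48 (mean 10.38 ± 0.047, n = 8) and the homozygous mice 10.32 to 10.41 (mean 10.37 ± 0.028). The groups of each batch overlapped, and every group mean lay within 1 SD of the group it was compared with. The highest value, 10.48, was that of B6 control 1, and the next was 10.41 in B6 control 3.

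**Figure D1:**
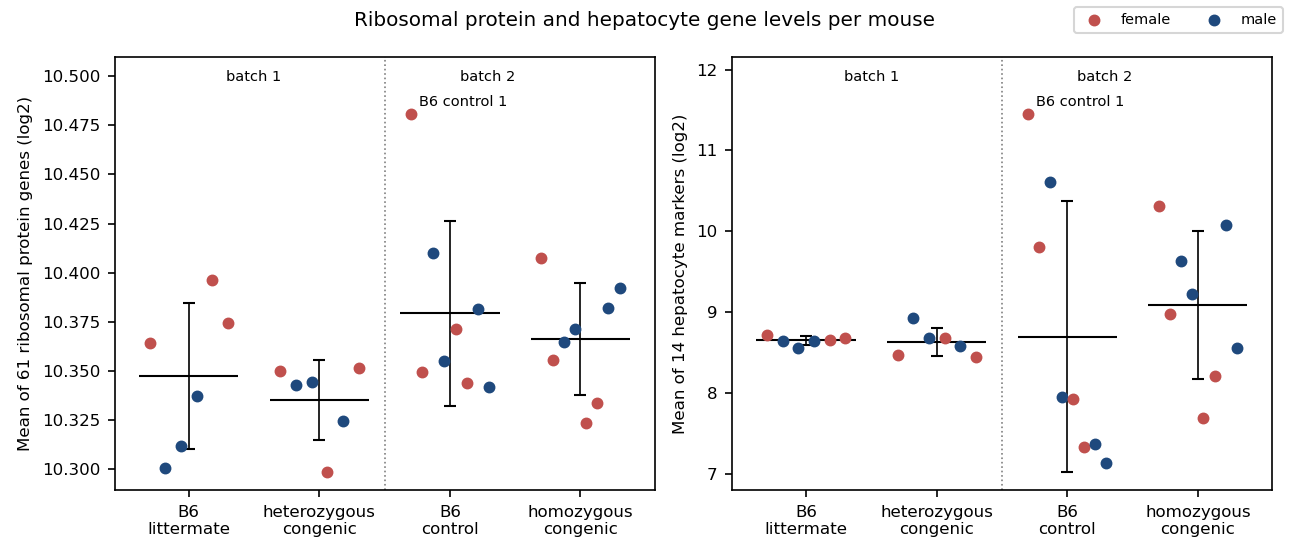
Each point is 1 mouse, coloured by sex. The left panel gives the mean log2 value of the 61 ribosomal protein genes, the right panel the mean log2 value of 14 hepatocyte marker genes, and black lines are group means with 1 SD. B6 control 1 is highest in both panels, at 10.48 and 11.45, and the 2 genotypes of each batch overlap in both.

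B6 control 1 stood apart from the other 7 B6 controls. In this mouse 42 of the 61 genes read higher than the mean of the other 7 and 19 lower, with a median difference of 0.075 on the log2 scale against -0.027 over all genes. The largest gap was that of Rps27l, a paralogue of Rps27 induced by p53, at 10.40 against 8.49 ± 0.27 (SD, n = 7). It was followed by Rps18 (11.42 against 10.80 ± 0.089), Rps12 (10.40 against 9.98 ± 0.094) and Rpl7 (10.19 against 9.77 ± 0.071). The largest gap downward was in Rpl14, at 7.63 against 8.07 ± 0.13. Rps15a, Rplp2 and Rpl21 were among the others that read below all of the other 7.

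Of the 61 genes, 29 (47.5%) read above all of the other 7 controls in B6 control 1, against 23.7% of all genes, and 10 read below all of them, against 37.6% of all genes. The excess was larger in the small subunit, with a median difference of 0.13, than in the large subunit, with 0.049. With 1 mouse there is no test of this. The same array had the highest mean of the 14 hepatocyte markers measured, 11.45, where the other controls lay between 7.14 and 10.61 and the homozygous mice between 7.69 and 10.32. In batch 1 that mean lay between 8.45 and 8.93. B6 control 1 also had the lowest mean of the spiny neuron markers (11.30) and of the oligodendrocyte markers (10.85). It was lowest of the 28 too in the astrocyte (9.80), microglia (8.33), ribosome assembly (8.64) and mTOR pathway (8.92) means, and highest in the endothelium (8.43) and blood (7.58) means. The part of these in the ribosomal protein values was not tested. In bulk tissue, fewer cells of a type and less RNA per cell cannot be told apart.

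Rps27l was measured by 1 cluster, which lay at the gene's own place on chromosome 9. Its values in the B6 controls were 10.40, 8.67, 9.01, 8.41, 8.44, 8.35, 8.27 and 8.25, in the order of the mouse numbers. In the homozygous mice they were 8.90, 8.66, 8.34, 8.50, 8.34, 8.16, 8.54 and 8.43. The mice with the highest values after B6 control 1 in batch 2, B6 control 3 and homozygous mouse 1, were also the next highest in hepatocyte markers, at 10.61 and 10.32. In batch 1 the littermates read 8.44, 8.50, 8.29, 8.23, 8.61 and 8.62, and the heterozygous mice 8.65, 8.64, 8.65, 8.33, 8.65 and 9.03. Heterozygous mouse 6, at 9.03 the highest of batch 1, had a hepatocyte mean of 8.45, the lowest of that batch. The hepatocyte markers include Ttr, which is also on a list of choroid plexus markers. The choroid plexus mean of heterozygous mouse 6 was 7.12, where the heterozygous mice ranged from 7.01 to 7.90. Heterozygous mouse 2, highest of batch 1 in the hepatocyte mean (8.93), was also the 7.90. The part of Ttr in the hepatocyte means was not tested. Rps27l did not pass the test in any comparison. Homozygous minus controls was -0.24 (95% interval -0.64 to 0.16, limma adjusted p = 0.864), and -0.006 without B6 control 1.

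**Figure D2:**
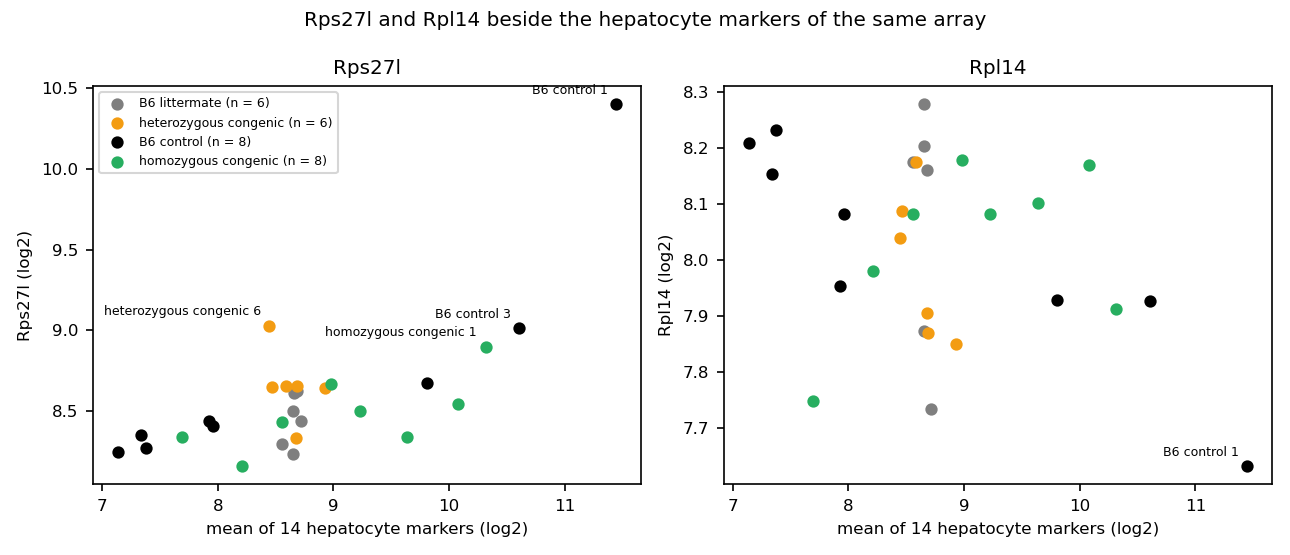
Each point is 1 mouse, coloured by group, with the mean of 14 hepatocyte markers (log2) on the x axis and the log2 value of Rps27l (left) or Rpl14 (right) on the y axis. B6 control 1 has the highest Rps27l value (10.40) and the lowest Rpl14 value (7.63), while heterozygous congenic 6 has 9.03 for Rps27l at a hepatocyte mean of 8.45. The 14 markers include Ttr, which is also a choroid plexus marker.

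The first genotype question was whether carriers of the A/J segment differed from B6 in these genes. With batch and sex in the model, 0 of 61 genes passed an adjusted p of 0.05 in the limma fit over all genes, where 0.0201% of genes were called. The smallest adjusted p was 0.839. At an unadjusted p under 0.05 there were 3 of 61 (4.92%), against a background of 5.3%, so the share was close to that of all genes. There were 22 genes higher and 39 lower in carriers, with a median of -0.016 against 0.009 over all genes. Without B6 control 1 the split was 25 to 36 and the median -0.008, against 0.006 over all genes. The 95% intervals of 60 of the 61 genes lay within 0.2 log2 units of 0, the exception being Rps27l (-0.36 to 0.26).

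The 3 genes at an unadjusted p under 0.05 were Rps4l, Rps13 and Rplp1. Rps4l, a paralogue of Rps4x, read between 8.03 and 8.27 in littermates with a median of 8.12. The heterozygous mice lay between 7.88 and 8.16, median 7.99. In batch 2 the controls lay between 8.01 and 8.25 (median 8.15) and the homozygous mice between 7.92 and 8.12 (median 8.07). The groups overlapped in both batches, with 13 of 14 carriers below the mean of their own B6 group. The fitted difference was -0.11 (SE 0.033, limma adjusted p = 0.839), a fold of 0.929. The cluster behind this value lay, by its number, among chromosome 7 genes, while Rps4l is on chromosome 6, and the home cluster of Rps4l gave -0.056. The difference of the cluster used was -0.12 in batch 1 alone and -0.094 in batch 2 alone.

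Rps13, a small-subunit protein near the interface of the subunits, spanned 9.27 to 9.39 in littermates and 9.15 to 9.39 in heterozygous mice. In batch 2 it spanned 9.32 to 9.48 in controls and 9.16 to 9.40 in homozygous mice. The difference over both batches was -0.083 (SE 0.027, limma adjusted p = 0.839), and 12 of 14 carriers lay below their B6 group's mean. Rplp1, of the P stalk, was the one of the 3 that read higher, by 0.068 (SE 0.027, limma adjusted p = 0.877), again in 12 of 14 carriers. Next by p came Rps3 (0.053, SE 0.029), Rps9 (0.061, SE 0.041, and -0.0067 with its home cluster) and Rps21 (0.042, SE 0.031) among those reading higher, and Rps25 (-0.081, SE 0.044) and Rpl28 (-0.052, SE 0.033) among those reading lower. Rpsa, the laminin receptor protein of the small subunit, read -0.024 (SE 0.057) and Rps6 -0.032 (SE 0.027). The stalk partners of Rplp1 read 0.008 (Rplp0) and 0.005 (Rplp2) in the same fit. In the authors' deposited table the same 3 genes had p-values under 0.05 (Rps4l 0.00264, Rps13 0.00263, Rplp1 0.0135), without adjustment, and 5.85% of the 19938 genes did so in that table.

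**Figure D3:**
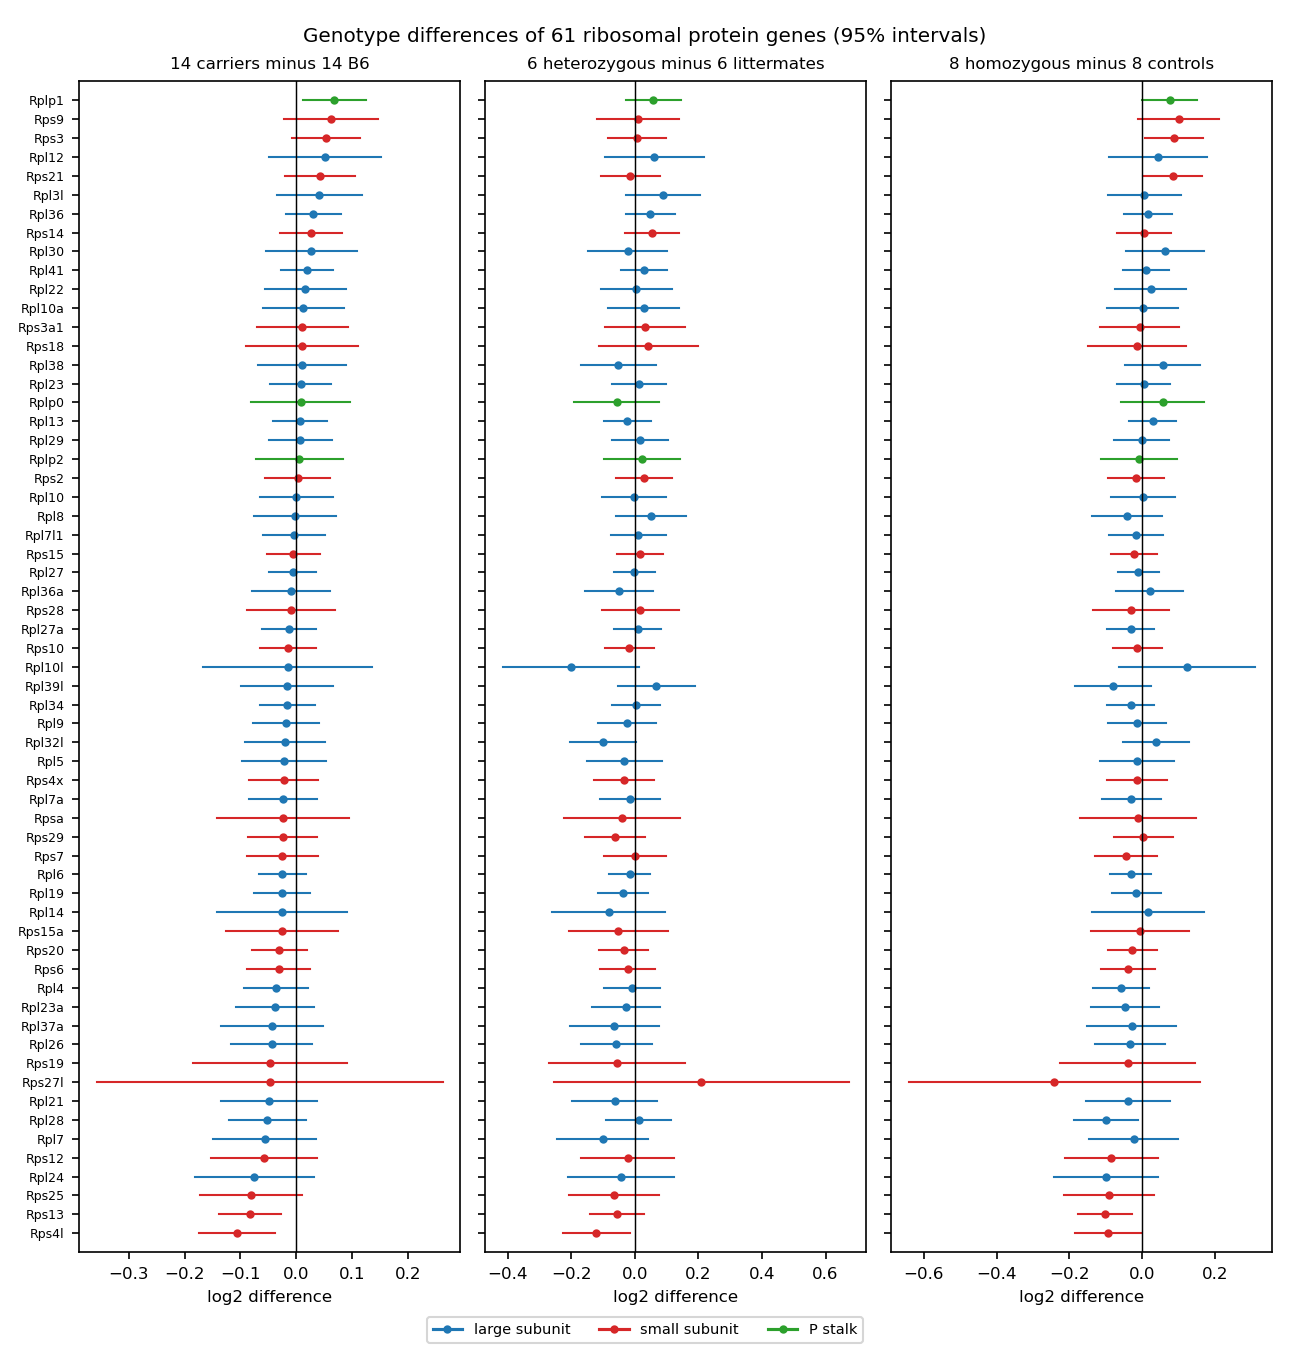
Each row is 1 of the 61 genes, ordered by the difference between all carriers and all B6 mice. Points are log2 differences and lines 95% intervals from the limma fit, coloured by subunit, with the 3 panels for 14 carriers, 6 heterozygous and 8 homozygous mice, each against their B6 group. The 3 genes whose interval leaves out 0 in the left panel are Rplp1, Rps13 and Rps4l.

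With 1 copy of the segment, 0 of 61 genes passed (background 0%, smallest adjusted p 1.00), and 1 of 61 had an unadjusted p under 0.05 against 3.69% of all genes. That gene was Rps4l (-0.12, SE 0.051). There were 26 genes higher and 35 lower, with a median of -0.015 against 0.002 over all genes. The values of heterozygous mice and littermates overlapped in all 61, where 0.155% of all genes did not overlap. The 95% intervals of 47 of the 61 lay within 0.2 of 0. Rpl10l had the lowest, from -0.42 to 0.015, around -0.20 (SE 0.10). Rpl32l read -0.099 (SE 0.050) and Rpl7 -0.10 (SE 0.069). The smallest p-values among genes reading higher were those of Rpl3l (0.088, SE 0.057), Rplp1 (0.058, SE 0.042), Rps14 (0.055, SE 0.042) and Rpl36 (0.049, SE 0.037).

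With 2 copies of the segment, again 0 of 61 passed, where 0.00502% of genes were called, with a smallest adjusted p of 0.584. At an unadjusted p under 0.05 there were 6 of 61 (9.84%), against 6.23% of all genes. The 6 were Rps13 (-0.10, SE 0.036), Rpl28 (-0.100, SE 0.043), Rps4l (-0.094, SE 0.044), Rps3 (0.088, SE 0.038), Rps21 (0.084, SE 0.039) and Rplp1 (0.076, SE 0.037). Rps3, which lies at the mRNA entry of the small subunit, ranged from 10.36 to 10.50 in the homozygous mice and from 10.24 to 10.43 in the controls. All 8 homozygous mice lay above the controls' mean for Rps3, and all 8 below it for Rps4l. Rps9 (0.10, SE 0.054, and -0.030 with its home cluster) and Rpl39l (-0.080, SE 0.051) followed. Rpl28, a large-subunit protein, spanned 12.10 to 12.34 in the homozygous mice and 12.22 to 12.43 in the controls. The values overlapped between the groups in all 61 genes, where 0.1% of all genes did not. The split of 22 higher and 39 lower (63.9%, against 38.5% of all genes) became 30 and 31 (50.8%, against 42.5%) without B6 control 1. The median moved from -0.014 to -0.003, against 0.016 and 0.010 over all genes. The hepatocyte markers differed between the same groups by a median of 0.39, or 0.81 without that mouse, with 0 of 14 called, and their part in these values was not tested.

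The difference between the homozygous and the heterozygous effect was tested in the same fit, with 0 of 61 called (background 0%). Each effect was taken within its own batch. Copy number, batch, age and litter changed together between the effects and cannot be told apart, and ComBat had adjusted the spread of each batch. At an unadjusted p under 0.05 there were 2 of 61, against 5.07% of all genes. Both were paralogues. Rpl10l differed by 0.32 (95% interval 0.039 to 0.61, limma adjusted p = 0.939) and Rpl32l by 0.14 (limma adjusted p = 0.986). In the heterozygous mice Rpl10l lay between 6.34 and 6.75, in their littermates between 6.47 and 6.83. In the homozygous mice it lay between 6.41 and 6.85 and in the controls between 5.94 and 6.74. The low end among the controls was B6 control 8 alone. Next by p, the homozygous effect was the higher for Rps21 (0.098, SE 0.060) and Rpl38 (0.11, SE 0.076), and the lower for Rpl39l (-0.15, SE 0.078), Rpl28 (-0.11, SE 0.065), Rps27l (-0.45, SE 0.30) and Rpl8 (-0.092, SE 0.071). Rps27l was -0.22 without B6 control 1.

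Females and males did not differ past the test in any of the 61 genes, where 0.0552% of all genes were called. At an unadjusted p under 0.05 there were 3 of 61, against 7.34% of all genes. These were Rpl14 (-0.15, SE 0.057, limma adjusted p = 0.605), Rpl28 (-0.073) and Rps10 (-0.053), all reading lower in females. Rpl36 (-0.046, SE 0.024) read lower too. Rps12 (0.092, SE 0.047), Rpl41 (0.045, SE 0.023), Rpl7 (0.073, SE 0.045) and Rpl7l1 (0.044, SE 0.027) read higher. Without B6 control 1, a female, the lower ones were Rpl14 -0.13, Rpl28 -0.067, Rps10 -0.046 and Rpl36 -0.045. The higher ones were then Rps12 0.064, Rpl41 0.044, Rpl7 0.046 and Rpl7l1 0.032. In the fit over all 28 mice, all 8 spiny neuron markers tested read lower in females (median -0.13, or -0.084 without B6 control 1). Of these, 6 had an unadjusted p under 0.05 and 0 passed the adjusted test. All 5 oligodendrocyte markers read lower (median -0.079, or -0.039 without that mouse), and all 4 cortical excitatory neuron markers higher (median 0.13, or 0.15 without it), with 0 of either list past the test. Their part in the ribosomal protein values was not tested. Of the 61 genes 37 read higher in females and 24 lower (39.3%, against 46.8% of all genes), with a median of 0.009 against 0.004. The batches differed here, with 46 of 61 higher in females in batch 1 (median 0.034) and 25 of 61 in batch 2 (median -0.015). Shares over all genes are not given by batch. In the littermates the members' mean was 10.36 to 10.40 in the 3 females and 10.30 to 10.34 in the 3 males, while the sexes overlapped in the other 3 groups. With 3 mice per sex such a separation in 1 of 4 groups is no test of a difference. The X-linked Rps4x differed by 0.027 between the sexes (SE 0.030, limma adjusted p = 0.885).

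The same fits hold the rest of the translation machinery, and none of its genes passed in a genotype comparison. In females minus males 1 initiation factor passed, the X-linked Eif2s3x (0.45, SE 0.034, limma adjusted p = 9.96e-10). Of 33 initiation factors 10 read higher and 23 lower in carriers, with a median of -0.011. Eif2s2, the beta subunit of the factor that brings the initiator tRNA, had the smallest p (-0.11, SE 0.043, limma adjusted p = 0.872). Of 10 elongation and termination factors 6 read higher and 4 lower. Eef2k, the kinase that inhibits elongation factor Eef2, read 0.077 higher (SE 0.036) and the release factor Etf1 -0.083 (SE 0.039), neither past the test. Of 41 ribosome assembly genes 21 read higher and 20 lower, with Rrp9, a U3 snoRNP protein, at 0.095 (SE 0.030, limma adjusted p = 0.839). Of 18 genes of the mTOR pathway 11 read higher and 7 lower. Of 15 other mRNAs with a pyrimidine-rich start, 4 read higher and 11 lower in carriers, with a median of -0.011 beside the -0.016 of the ribosomal proteins. Without B6 control 1 these medians were -0.016 and -0.008, and that of the initiation factors -0.021. Fau, which encodes ribosomal protein Rps30 as a fusion, read -0.014 (SE 0.023).

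How the 61 genes moved together was described over the 28 mice after each group's mean was taken out. All pairs share the same arrays and their normalization. The median correlation over the 1830 pairs was 0.097, with 63.1% of pairs above 0, against a median of 0.018 for pairs of all genes. The first principal component held 23.0% of the variance. Most genes followed the others: the correlation of a gene with the mean of the other 60 had a median of 0.33 and was above 0 for 52 of 61. Over all other genes the correlation with the ribosomal mean had a median of -0.15, or -0.095 without B6 control 1. Without B6 control 1 the pair median was 0.088 and the component held 21.9%, with 49 genes above 0.

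The genes that followed the others most closely were Rps28 (r = 0.87), Rps12 (0.78), Rpl7 (0.77), Rps29 (0.75) and Rps7 (0.71), over 28 mice. With B6 control 1 left out they read 0.83, 0.70, 0.69, 0.73 and 0.60, and Rps13 (0.64) stood above Rps7. Rps28 lay between 10.10 and 10.55, low in homozygous mouse 5 and high in B6 control 1. At the other end stood Rpl14 (r = -0.44), Rpl4 (-0.20), Rpl3l (-0.18), Rpl12 (-0.17) and Rpl13 (-0.16). Without B6 control 1 these values were -0.27 for Rpl14, -0.006 for Rpl4, -0.059 for Rpl12, -0.27 for Rpl3l and -0.26 for Rpl13. The values of Rpl4 and Rpl12 thus rest on that mouse, and the order at this end changes without it. Rpl14 ran against Rpl23 (r = -0.66), Rps3 (-0.64) and Rps4x (-0.61), or -0.53, -0.59 and -0.44 without B6 control 1.

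Pairs of small-subunit genes had a higher median correlation (0.18 over 253 pairs) than pairs of large-subunit genes (0.059 over 595), with mixed pairs between them (0.12 over 805). These medians include B6 control 1, whose excess was larger in the small subunit, and are not given without it. Pairs not measured by home clusters also had a higher median (0.18) than pairs measured by them (0.046). The part of either in the subunit contrast was not tested. The highest pair was Rps18 with Rps27l (r = 0.86), which fell to 0.49 without B6 control 1. Rpl27a with Rpl9 (0.85) and Rpl21 with Rps6 (0.83) read 0.85 and 0.84 without it. The pair median was 0.17 among littermates, 0.049 among heterozygous, 0.16 among B6 control and 0.13 among homozygous mice.

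**Figure D4:**
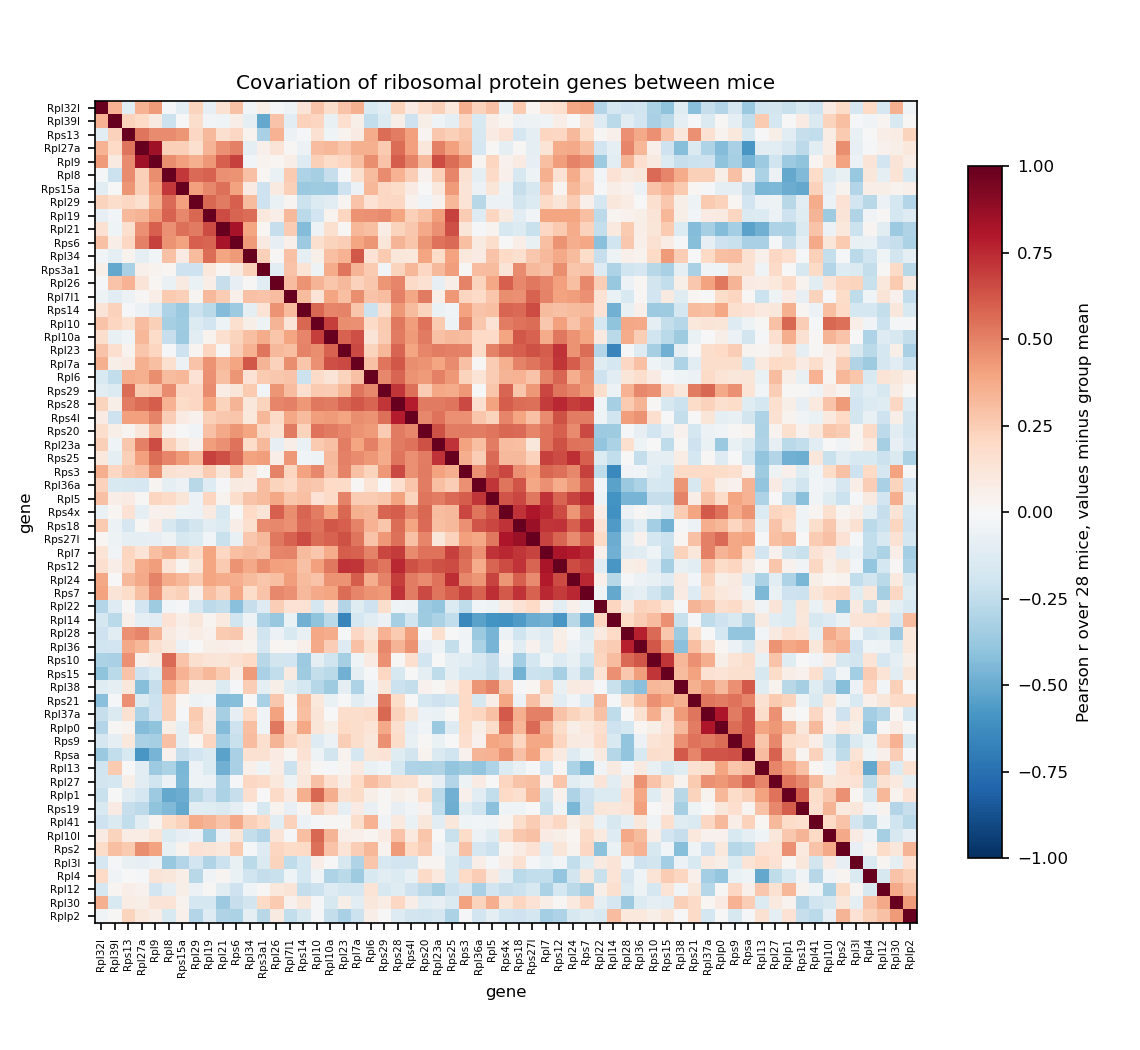
The colour of each cell is the Pearson correlation of 2 of the 61 genes over 28 mice, after the mean of each group was taken out, with genes ordered by average-linkage clustering. A block around Rps28, Rps7, Rps12 and Rpl7 is red, and the row of Rpl14 is blue across it.

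The genes outside the group most like its mean were Tmbim6 (r = 0.83), Slc31a1 (0.82), Ak3 (0.81), Grn (0.81), Esd (0.80), Gjb1 (0.79), Hspe1 (0.79), Ctsl (0.79), Cd82 (0.78) and Dram2 (0.77), over the same 28 mice. They kept values of 0.70 to 0.79 without B6 control 1. They include the lysosomal genes Grn and Ctsl and the oligodendrocyte and hepatocyte gap junction gene Gjb1, and none is a translation gene. The genes most like Rps27l were Lipa (r = 0.96), Idh1, Ugdh, Ctsc and Ninj1, all at 0.94 or above, and 0.79 to 0.85 without B6 control 1.

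The array names several clusters for many of these genes, 217 in all for the 61, with 14 for Rps12 and 13 for Rpl23a. The value used is that of the cluster with the highest mean. A cluster was called the gene's home cluster where its number lay among those of the gene's chromosomal neighbours, a placing inferred from the numbering and not tested against probe sequences. By this reading 26 genes were measured by their home cluster and 35 by a cluster elsewhere. Of 18840 other genes with 1 cluster, 93.4% were at home. The signals of a gene and of its near-identical copies cannot be told apart where they share probes, so the values of these 35 genes are uncertain.

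Over the 28 genes that had both, the cluster used and the home cluster had a median correlation of 0.89, with 23 above 0.5. Rpl10, Rpl10a and Rps6 were near 1, while Rps2 (0.16), Rpl23 (0.26) and Rps9 (0.40) were far from it. For Rps9 the sign of the homozygous difference turned, from 0.10 (SE 0.054) to -0.030 with the home cluster. For Rps21 its 2 clusters had a correlation of -0.12. For Rps4l the cluster used, 10567106, lay among the numbers of chromosome 7 genes, with Sox6 and Plekha7 between it and the Rps13 cluster 10567163, while the gene itself is on chromosome 6. Rpl41 had 3 clusters with identical values, which count once.

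**Figure D5:**
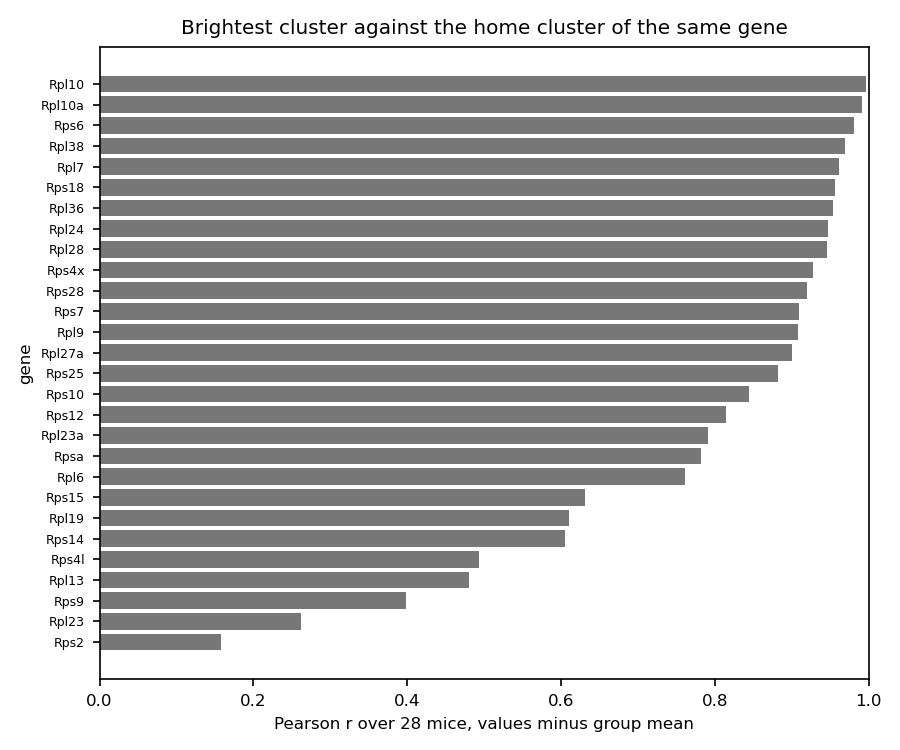
Bars give, for each of the 28 genes that have both, the Pearson correlation between the brightest cluster and the home cluster over 28 mice after group means were taken out. Most bars lie above 0.5, and Rps2 (0.16), Rpl23 (0.26) and Rps9 (0.40) are the lowest.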

How the data were processed

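Striatal RNA of 28 mice, which the labels name as separate mice, was measured on 1 array each. The deposited log2 values were made by the authors with RMA in Affymetrix Power Tools after masking probes on a kill list, and batches were adjusted with ComBat, per the file headers. The submitters' processing notes name Affymetrix Expression Console and RMA, and versions are not given in the sources used here. RMA sets all arrays to 1 distribution, and ComBat adjusts mean and spread between the 2 batches, so no level was tested between batches. The spread was not made equal for every gene. The hepatocyte mean had an SD of 0.053 in littermates and 0.18 in heterozygous mice, against 1.67 in B6 controls and 0.91 in homozygous mice. The authors' p-values, from t-tests of 14 B6 against 14 congenic arrays per the file headers, were only quoted.

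Of 35556 transcript clusters, the platform annotation gives 21789 a single symbol, 1621 several and 12146 none. For each of 19938 genes the single-symbol cluster with the highest mean was used. Genotype and sex were fitted with limma 3.58.1 (R 4.3.3) over all genes, with Benjamini-Hochberg adjustment. Carriers against B6 had batch and sex as terms, and the other comparisons used means of the 4 groups plus sex. The fits were tested on simulated data. The number of arrays limits the precision. Alternatives covered the cluster per gene, a further quantile normalization, covariates, batches, a dim filter, the methods' t-test and each mouse left out.

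The text names Rps6, Rpsa, Rps4x, Rplp0 and the paralogues, the 4 smallest p-values in each direction per comparison, the 5 highest and lowest genes by spread and by correlation, the 10 most similar outside genes, and the smallest p-values of each list. The members, lists and rules were chosen with earlier results of these data known.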

Additional observations from a re-analysis of the deposited data

Results flagged for a closer look

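Dixon's ratio was applied to each gene, and to the mean over the genes, in each group of 6 or 8 mice. In these 248 combinations 23 values stood apart from their group, where chance gives about 1 in 20. Of the 23, 11 were in B6 control 1 and 0 were values of the mean. The share over all genes is not given. In B6 control 1, 23.7% of all genes read above all of the other 7 controls and 37.6% below all of them. The 11 in B6 control 1 therefore cannot be read as particular to the ribosomal protein genes. In that mouse Rps27l read 10.40, Rps18 11.42, Rps12 10.40, Rpl7 10.19, Rplp0 11.83, Rps4x 11.06, Rps7 11.57, Rpl10a 12.05, Rpl23 11.13 and Rps3a1 8.35, each the highest of the 8 controls, and Rps15a read 8.52, the lowest. The array had the highest hepatocyte mean of the 28 (11.45), and the part of that in these values was not tested.

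Among the other controls, Rpl10l was low in B6 control 8 (5.94), Rpl13 in B6 control 4 (9.65) and Rpl19 in B6 control 2 (12.37). In homozygous mice Rplp0 was high (11.79) and Rps15a low (8.44) in mouse 3, Rpl29 was low in mouse 2 (10.81) and Rps28 in mouse 5 (10.10). In littermates Rpl23 was high in mouse 1 (11.00), Rps18 in mouse 5 (10.99) and Rps15 in mouse 6 (12.85), and Rpl8 was low in mouse 2 (9.97). In heterozygous mice Rps3a1 was low in mouse 2 (7.83).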

How the results depend on the processing

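The count of ribosomal protein genes past the adjusted threshold was 0 in all 188 fits of a comparison under a setting, with a smallest adjusted p of 0.450. Over 1456 alternative values of the named genes, 1449 kept their sign and 7 turned it. The genes were named for small p-values, and many alternatives left out 1 mouse, where 0 turned. Leaving out a mouse of batch 2 does not change the heterozygous differences. The count is therefore no measure of how firm the signs are. With the home cluster, chosen after seeing the data, Rps9 read -0.0067 in carriers and -0.030 in homozygous mice. In batch 1 alone Rps21 read -0.014 and Rpl28 0.012 in carriers. With the replicate number as a block, the female minus male differences of Rpl41 (-0.037), Rpl7 (-0.017) and Rpl28 (0.010) turned. Same-numbered mice are of the same sex in 12 of 14 pairs, so these blocked values rest on the 4 mice of the other 2 pairs and are no test of the sex difference. The cause of the other turns was not tested.

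Medians over the 61 genes were small enough to move with single mice. Leaving out 1 mouse moved the carrier median between -0.019 and -0.008 (highest without B6 control 1), the heterozygous one between -0.021 and -0.0017 (without heterozygous mouse 4), the homozygous one between -0.021 and -0.0029 (without B6 control 1), the difference of effects between -0.015 and 0.0032 and the sex median between 0.0026 and 0.012. A further quantile normalization turned the heterozygous median to 0.0067. The replicate block left the carrier median at -0.016 with 0 genes called, and gave a sex median of 0.019 from those 4 mice. Same-numbered mice correlated between -0.52 and 0.69 over 14 pairs, above 0.1 in 9, and 5 correlated best with their own number. In batch 1 same-numbered mice also had the same age in 5 of 6 pairs. These values do not settle whether the numbers mark pairs, and the main fits did not treat them as pairs. No block could be set for the difference of effects. The methods' t-test gave 3 genes under an unadjusted p of 0.05 and 0 after adjustment, against 5.85% and 0.0301% of all genes. The pair correlation median ranged from 0.049 to 0.17 over groups and cluster choices.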

Other observations

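Around the Rps13 and Rps4l clusters, the neighbouring numbers on the array belonged to genes whose carrier differences were -0.033 (Sox6, SE 0.025), 0.056 (Plekha7, SE 0.030), -0.035 (Pik3c2a, SE 0.038) and -0.026 (Rps15a, SE 0.049), beside -0.083 for Rps13 and -0.11 for Rps4l. None of these had an unadjusted p under 0.05 except Rps13 and Rps4l.

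Genes that ran against the ribosomal mean over the 28 mice included Poc1a (r = -0.80), Camta2 (-0.78), Zfp24 (-0.78), Atp23 (-0.77) and Mettl24 (-0.75), which read between -0.75 and -0.70 without B6 control 1. Pairs of genes that were both measured by clusters elsewhere had a median correlation of 0.18 over 595 pairs, and pairs both measured at home 0.046 over 325 pairs. Of the clusters named for these genes, 19 had a twin with identical values, in 5 genes.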
